A study of Mus musculus with 15 samples.

Results

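The genes described here are 9 interferon-stimulated genes, namely Isg15, Ifit1, Ifit2, Ifit3, Irf7, Oasl2, Rsad2, Usp18 and Trim25. They were picked by symbol from the 54532 genes listed in the liver and lung count tables, and all 9 were found once in each. RNA was sequenced from male wild type C57BL/6J mice, an inbred laboratory strain, labelled 28 weeks old, a number that the methods of the study give as the length of feeding, adaptive feeding included. The CS group ate the control diet, and the PS group ate a phytosterols diet that held 2% of these plant sterols, which resemble cholesterol. Livers came from 4 CS and 5 PS mice and lungs from 3 CS and 3 PS mice, with 1 library per mouse and tissue. The 6 lungs came from mice whose livers were also sequenced, so lung CS 1, 2 and 3 match liver CS 1, 2 and 3, and lung PS 1, 2 and 3 match liver PS 1, 3 and 5.

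Interferons are secreted proteins that cells release when their sensors meet foreign or misplaced nucleic acid. Type I interferons bind the receptor chains IFNAR1 and IFNAR2, the kinases JAK1 and TYK2 then phosphorylate STAT proteins such as STAT2, which joins IRF9 in a complex that binds interferon-stimulated response elements near its target genes. The products of the targets block viral RNA and viral assembly, and some of them raise or damp the response itself. Most of these genes have a low level in healthy tissue, and resident macrophages, endothelium and parenchymal cells can all transcribe them.

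The total count per library ranged from 14410117 to 17625179 in the liver and from 17934930 to 19396057 in the lung. Hepatocyte markers summed to between 75769 and 119337 CPM (counts-per-million of the TMM-scaled library total) in the livers, and alveolar type II markers to between 18899 and 33502 CPM in the lungs, as the tissue labels say. Over all genes, the livers of both diets deviated from their diet means along a shared line, with CS 2 going together with PS 1 (r = 0.46) and PS 3 (0.42), and CS 1 and CS 3 with PS 4 (0.44 and 0.47), across genes, which are not independent replicates. CS 2 and PS 1 also had the fewest genes with a count, 15961 and 16207. Liver results were also computed without CS 2, PS 1 and PS 3, a choice made after the data were seen, and are given where a call differs.

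The 3 Ifit genes lie on chromosome 19 of GRCm38, Ifit2 from 34550694 to 34576419, Ifit3 from 34583531 to 34588731 and Ifit1 from 34640871 to 34650009, all on the plus strand. Isg15 lies on chromosome 4 from 156199424 to 156200818 (minus strand), and Irf7 on chromosome 7 from 141262706 to 141266481 (minus strand). Rsad2 lies on chromosome 12 from 26442746 to 26456452 (minus strand) and Trim25 on chromosome 11 from 88999376 to 89020293 (plus strand). Oasl2 lies on chromosome 5 from 114896936 to 114912234 and Usp18 on chromosome 6 from 121245906 to 121270917, both on the plus strand. The counts take in all annotated exons, UTRs included. Ifit3 shares 97.8% identity over 1700 bases with Ifit3b, so reads of these copies may have been split between them. Irf7 shares 45 exonic bases with Phrf1 on the other strand, and without a stated strand setting the reads there cannot be told apart.

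RefSeq promoter windows of GRCm38.p6, from 250 bases before to 50 bases after each start, were held for 8 of the 9 genes. They were searched on both strands for the letters GAAANNGAAA, the core of an interferon-stimulated response element, where N is any base and the other strand reads TTTCNNTTTC. The letters stood in the windows of Isg15, Ifit1, Ifit3 and Rsad2 and in 3.44% of all 32851 windows. The genes were chosen as targets of interferon, so a match is not independent of that choice. These 4 stretches are shown with the matching letters in capitals and each sequence written in the direction of its gene:
Isg15 (chr4:156200845-156200926, minus strand): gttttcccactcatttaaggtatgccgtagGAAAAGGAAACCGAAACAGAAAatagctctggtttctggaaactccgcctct
Ifit1 (chr19:34640755-34640843, plus strand): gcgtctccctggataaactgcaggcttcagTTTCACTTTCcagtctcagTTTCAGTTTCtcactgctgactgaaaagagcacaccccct
Ifit3 (chr19:34583343-34583446, plus strand): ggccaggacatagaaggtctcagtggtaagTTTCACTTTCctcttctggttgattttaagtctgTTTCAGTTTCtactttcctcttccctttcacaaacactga
Rsad2 (chr12:26456533-26456602, minus strand): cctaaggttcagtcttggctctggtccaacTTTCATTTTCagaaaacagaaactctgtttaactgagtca
Isg15 held 3 copies that overlap each other, Ifit1 and Ifit3 held 2 copies each and Rsad2 held 1. The windows of Ifit2, Irf7, Oasl2 and Trim25 did not contain these letters. A match is a description of the letters only, and 3.99% of the 27025 genes with a window had one.

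Levels within a tissue were compared per gene length with the deposited FPKM, fragment counts divided by gene length and library size, which were scaled in each tissue on its own. In CS livers Trim25, a ubiquitin ligase that acts on the RNA sensor RIG-I, stood highest at 16.9 ± 1.14 FPKM (SD, n = 4). Isg15, a ubiquitin-like protein that is attached to other proteins, stood at 16.0 ± 6.62 FPKM, and Irf7, the transcription factor that amplifies type I interferon production, at 14.2 ± 3.55 FPKM. The libraries of these 3 neighbours overlapped, so their order was within the spread. Ifit3, Ifit1 and Usp18 followed at 8.23 ± 2.46, 5.76 ± 2.26 and 5.49 ± 1.73 FPKM, each overlapping its neighbour. Ifit proteins bind viral RNA, and Usp18 removes Isg15 from proteins and also damps signalling at IFNAR2. Rsad2, known as viperin, makes a nucleotide that ends viral RNA chains, and its level was 2.57 ± 2.32 FPKM. Oasl2, a relative of the oligoadenylate synthetases, and Ifit2 were lowest at 0.647 ± 0.224 and 0.643 ± 0.139 FPKM, below Rsad2 in every library. In PS livers Isg15, Trim25 and Irf7 again led at 15.4 ± 5.79, 11.6 ± 1.87 and 10.3 ± 1.92 FPKM (SD, n = 5), overlapping each other, and Rsad2 at 1.04 ± 0.464 FPKM overlapped Oasl2 at 0.656 ± 0.203 FPKM.

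In CS lungs the order of the means was another one. Ifit3 stood highest at 40.9 ± 4.72 FPKM (SD, n = 3), overlapping Isg15 at 36.0 ± 5.91 FPKM, and both were above Trim25 at 24.1 ± 2.92 FPKM in every library. Trim25 was above Ifit1 (12.8 ± 2.77 FPKM) in every library, and Ifit1 overlapped Usp18 (10.9 ± 2.38 FPKM). Ifit2 and Oasl2, the lowest in the liver, reached 8.48 ± 0.129 and 7.63 ± 0.561 FPKM. Irf7 followed at 6.94 ± 1.31 FPKM, overlapping Oasl2, and Rsad2 was below Irf7 in every library at 3.04 ± 0.654 FPKM. In PS lungs Irf7 moved from place 8 to place 5 at 10.2 ± 0.442 FPKM, where it overlapped Usp18 at 9.53 ± 2.14 FPKM, and Rsad2 remained last at 1.28 ± 0.372 FPKM. The annotated exons of Irf7 together cover the whole locus of 3776 bases, retained introns included, so its FPKM is low for its main transcript.

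**Figure D1:**
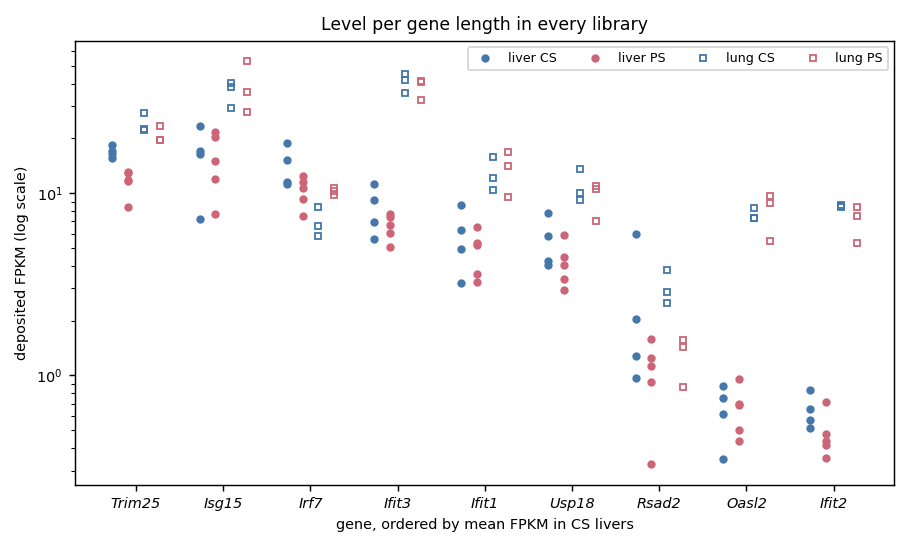
Deposited FPKM of each gene in every library on a log axis, with genes ordered by their mean in CS livers, filled circles for liver, open squares for lung, blue for CS and red for PS. By their means Ifit2 and Oasl2 were the lowest genes in the liver, although Rsad2 was lowest in PS 1 at 0.325 FPKM, and both stood above Rsad2 in all lung libraries.

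To ask which genes differed in level between the tissues, lung was compared with liver in 1 edgeR quasi-likelihood fit over all 15 libraries. At an adjusted p under 0.05, 3 of the 9 genes were higher in lung (42.3% of all 17696 genes tested were) and 3 were lower (34.4% of all genes). Ifit2 was higher by 2.43 on the log2 scale (standard error 0.18, adjusted p = 2.42e-09 from edgeR), Oasl2 by 2.21 (standard error 0.20) and Ifit3 by 1.06 (standard error 0.15). Irf7 was lower, with a log2 difference of -1.89 (standard error 0.16, adjusted p = 9.32e-09 from edgeR). These 4 genes kept their direction and their call with library totals in place of TMM, with differences of 3.81, 3.59, 2.44 and -0.50. Trim25 (-0.69) was called lower under TMM and higher under library totals (0.69), and Rsad2 went from -1.10 and a call as lower to 0.26 and no call, in a setting that moved the median of all genes from 0.17 to 1.55. With mouse as a block, since the lungs share mice with the livers, Rsad2 was at -0.80 with an adjusted p of 0.0963, and without liver CS 3 at -0.67 with an adjusted p of 0.0524 (edgeR), so 2 of the 9 genes were called lower in both. Isg15, Ifit1 and Usp18 were not called under TMM (-0.10, -0.05 and -0.27) and were called higher under library totals (1.27, 1.33 and 1.10), so for these 5 genes the tissue with the higher level depends on the scaling.

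The effect of the PS diet on the liver was measured next, with PS over CS as the direction. All 9 genes passed the filter on low counts, among 13195 genes tested. At an unadjusted p of at most 0.05, 2 of the 9 genes were lower in the PS group (3.58% of all genes tested were), Trim25 and Rsad2, and 0 were higher (3.96% of all genes). At an adjusted p under 0.05, edgeR called 0 of the 9 genes in either direction (0.00758% of all genes were called higher and 0.0% lower), and DESeq2 also called 0, with 3 lower at an unadjusted p of at most 0.05 (4.43% of all genes). The log2 fold change was below 0 for 8 of the 9 genes and above 0 for 1 (53.9% and 46.1% of all genes), and the median of the 9 was -0.39 against -0.03 for all genes.

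Trim25 was measured at 103, 94.4, 95.6 and 88.0 CPM in CS livers and at 66.4, 74.1, 68.0, 72.1 and 48.1 CPM in PS livers. Every PS liver was below every CS liver, as in 1.53% of all genes, and 0 of the 9 genes was above its CS values in every PS liver (2.1% of all genes). The mean was 95.3 ± 6.31 CPM (SD, n = 4) in CS and 65.8 ± 10.3 CPM (SD, n = 5) in PS livers. On the log2 scale the fold change was -0.54, with a standard error of 0.17 (edgeR unadjusted p = 0.00787, adjusted p = 0.411). The unadjusted p stayed at or under 0.0238 in all 9 fits that left out 1 liver.

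Rsad2 was measured at 8.61, 4.18, 25.3 and 5.44 CPM in CS livers and at 1.39, 5.29, 3.96, 4.72 and 6.76 CPM in PS livers. The third CS liver was the highest and the first PS liver the lowest, and the other 7 livers of both diets lay between 3.96 and 8.61 CPM. The log2 fold change was -1.29 (standard error 0.54, edgeR unadjusted p = 0.0341, adjusted p = 0.611), and without CS 3 it was -0.46 with an unadjusted p of 0.311. It also missed the threshold without PS 1, PS 3 or PS 4, with unadjusted p-values of 0.0619, 0.0629 and 0.0521.

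Irf7 was measured at 42.5, 70.5, 41.6 and 56.5 CPM in CS livers and at 42.8, 27.9, 47.0, 34.3 and 39.9 CPM in PS livers. The groups overlapped, and the log2 fold change of -0.46 (standard error 0.21) had an unadjusted p of 0.0531 in edgeR. It passed the unadjusted threshold in 3 of 9 fits with 1 liver left out. Without CS 2, its highest liver, the log2 fold change was -0.29 (unadjusted p = 0.167 from edgeR). With CS 2, PS 1 and PS 3 left out, the unadjusted p from edgeR was 0.0407 for Irf7 and 0.0405 for Usp18 (log2 fold change -0.62), so 4 of the 9 genes passed as lower in the other 6 livers (4.34% of all genes did).

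**Figure D2:**
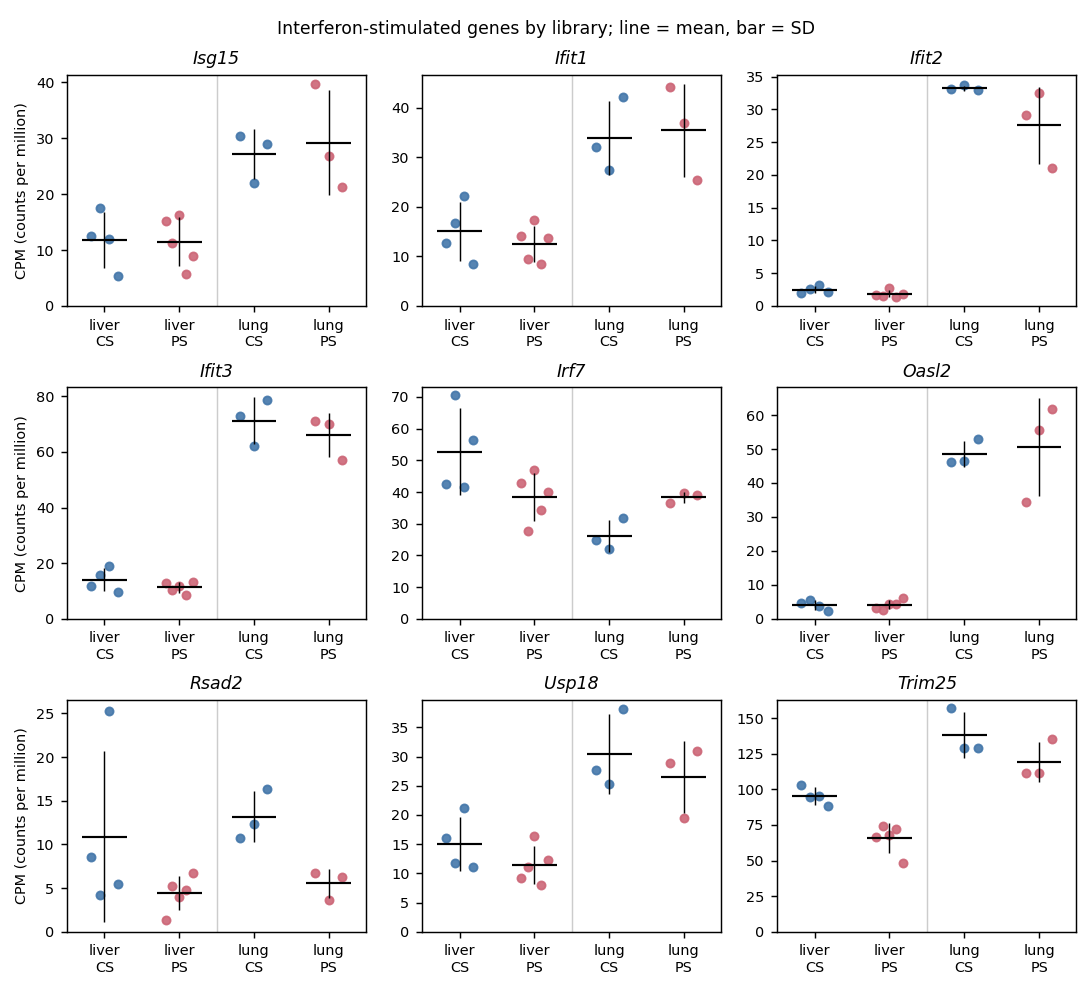
CPM of each gene in every library by tissue and diet, with the mean as a line and the SD as a bar, scaled by TMM within each tissue. Trim25 was lower in all 5 PS livers than in all 4 CS livers, Rsad2 was lower in all 3 PS lungs and Irf7 higher in all 3 PS lungs.

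The Ifit genes, Usp18, Isg15 and Oasl2 also did not pass the threshold with all livers. The Ifit genes had log2 fold changes of -0.26 for Ifit1, -0.41 for Ifit2 and -0.32 for Ifit3, with 2 standard errors reaching from -0.85 to 0.34 for Ifit1. Usp18 had a log2 fold change of -0.39 (-0.91 to 0.13 at 2 standard errors) on 8.03 to 21.2 CPM. Isg15 ranged from 5.31 to 17.5 CPM in CS livers and from 5.67 to 16.3 CPM in PS livers, a log2 fold change of -0.05 that 2 standard errors place between -0.78 and 0.68. Oasl2 was at 0.03 (-0.63 to 0.68) on 34 to 91 counts per library. At 2 standard errors Ifit2 reached from -1.04 to 0.21 and Ifit3 from -0.78 to 0.15. These intervals leave room for falls of more than 1.5-fold in each of these genes. For Isg15 and Oasl2 they also leave room for rises of that size, so such differences were not excluded at this depth and number of mice.

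Some marker lists of other cell types also had lower summed levels in PS livers. The 5 leukocyte markers summed to 33.3 to 62.4 CPM in CS and 18.3 to 37.8 CPM in PS livers, with 2 of the 5 lower at an unadjusted p of at most 0.05. The 5 macrophage markers summed to 141 to 197 CPM in CS and 51.5 to 176 CPM in PS livers (2 of 5 lower), and the 5 Kupffer cell markers to 159.5 to 226 and 51.0 to 179 CPM (1 of 5 lower). The 5 endothelial markers overlapped at 89.7 to 181 CPM in CS and 62.0 to 117 CPM in PS livers, with 0 passing an unadjusted p of 0.05 in edgeR and a median log2 fold change of -0.56. Fat cell markers, at 22.4 to 72.5 CPM in CS and 3.40 to 21.0 CPM in PS livers, did not overlap, with Ucp1 at 0 in all livers. Only 1 of these 5 markers passed the filter on low counts, and it was lower at an unadjusted p of at most 0.05. In bulk tissue, fewer cells of a type and less RNA per cell cannot be told apart, and the part of these cells in the liver values of the 9 genes was not tested.

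In the lung, 16717 genes were tested. At an unadjusted p of at most 0.05, 1 of the 9 genes was higher in PS lungs, Irf7 (15.6% of all genes tested were higher), and 1 was lower, Rsad2 (14.5% of all genes). At an adjusted p under 0.05, Rsad2 was lower (4.43% of all genes were) and 0 were higher in edgeR (4.8% of all genes), while DESeq2 called Irf7 higher as well, in a fit that called 9.64% of all genes higher and 8.85% lower. The 1 of 9 in each direction is close to the background share. The median log2 fold change of the 9 genes was -0.11, against 0.01 for all genes.

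Rsad2 was measured at 10.8, 12.3 and 16.4 CPM in CS lungs and at 6.69, 3.68 and 6.24 CPM in PS lungs. The 3 PS lungs were below the 3 CS lungs, as in 18.8% of all genes, and the mean fell from 13.2 ± 2.90 to 5.54 ± 1.62 CPM (SD, n = 3 each). It fell by 1.25 on the log2 scale, a level 2.38-fold lower (standard error 0.28, unadjusted p = 0.0017 and adjusted p = 0.0364 from edgeR). The unadjusted p stayed at or under 0.0113 in all 6 fits that left out 1 lung. The adjusted p was above 0.05 in 4 of them, at 0.101 without CS 1, 0.111 without CS 2, 0.127 without CS 3 and 0.106 without PS 2, and it was 0.355 in the fit over all 15 libraries. The mouse with the highest Rsad2 in the liver, CS 3, also had the highest value in the lung.

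Irf7 was measured at 24.8, 21.9 and 31.8 CPM in CS lungs and at 36.4, 39.7 and 39.0 CPM in PS lungs. All PS lungs were above all CS lungs, which 17.3% of all genes showed. The means were 26.2 ± 5.05 and 38.4 ± 1.73 CPM (SD, n = 3 each), which is 0.55 on the log2 scale with a standard error of 0.17 (unadjusted p = 0.00979 and adjusted p = 0.0686 from edgeR), and DESeq2 gave an adjusted p of 0.0361. Without CS 2 the log2 fold change was 0.42 and the unadjusted p from edgeR was 0.0662.

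Ifit2 was measured at 33.1, 33.7 and 32.9 CPM in CS lungs and at 29.2, 32.5 and 21.1 CPM in PS lungs. The groups did not overlap, with the second PS lung just below the lowest CS lung, and the log2 fold change of -0.27 (standard error 0.18) had an unadjusted p of 0.168 in edgeR. Trim25, at 157, 129 and 129 CPM in CS and 111, 112 and 136 CPM in PS lungs, overlapped and had a log2 fold change of -0.21 (-0.52 to 0.09 at 2 standard errors). The other 5 genes lay between -0.20 for Usp18 and 0.11 for Isg15, with unadjusted p-values of at least 0.395. For Oasl2 the 2 standard errors reached from -0.37 to 0.49.

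**Figure D3:**
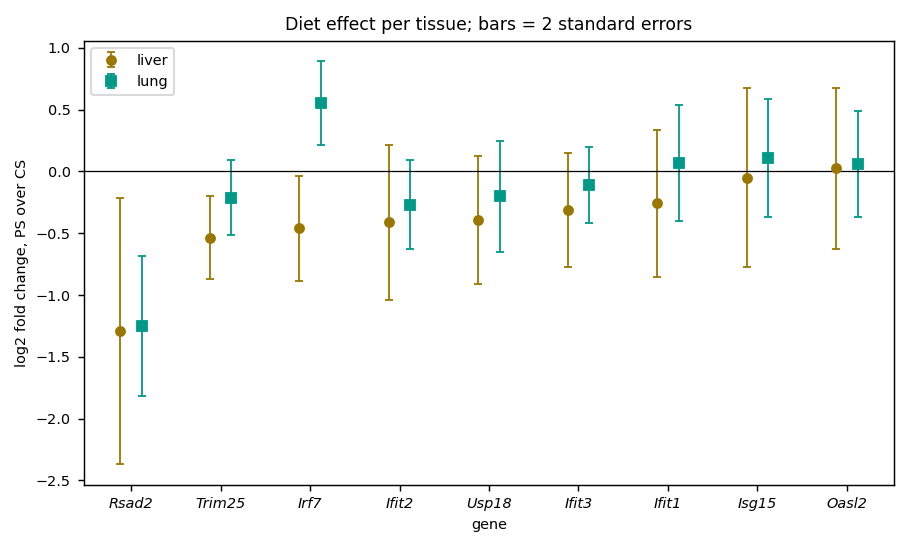
Log2 fold change of PS over CS for each gene in liver (circles) and lung (squares) with bars of 2 standard errors, genes ordered by the liver value. Rsad2 was at -1.29 in liver and -1.25 in lung, while Irf7 was at -0.46 in liver and 0.55 in lung.

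Among markers of other cell types in the lung, the 5 monocyte markers summed to 270 to 302 CPM in CS and 231 to 265 CPM in PS lungs, without overlap, and 0 of the 5 passed an unadjusted p of 0.05 in edgeR or an adjusted one. The summed alveolar type II markers were higher in all PS lungs, with 1 of the 5 genes higher and 1 lower at an unadjusted p of at most 0.05. The plasmacytoid dendritic cell list, which marks the main producers of type I interferon, overlapped at 138 to 196 CPM in CS and 166 to 270.5 CPM in PS lungs. Most of that sum was Bst2, itself an interferon-stimulated gene, and the other 4 markers summed to 18.6 to 20.7 CPM in CS and 10.9 to 38.3 CPM in PS lungs, which overlapped as well. The 5 macrophage markers summed to 227 to 255 CPM in CS and 235 to 314 CPM in PS lungs (2 higher, 1 lower and 1 call after adjustment), and the 5 alveolar macrophage markers to 341 to 362 and 287 to 533 CPM (2 higher). Neutrophil markers were at 112 to 352 and 222 to 492.9 CPM, with 1 higher and called after adjustment. Endothelial markers were at 2599 to 3193 and 2747 to 3187 CPM, with 1 lower and called after adjustment, and B cell markers at 104 to 180 and 82.2 to 121 CPM, with 2 lower. Cardiac and skeletal muscle markers overlapped at 136 to 418 CPM in CS and 26.4 to 297 CPM in PS lungs, with 1 lower. Ciliated airway cell markers overlapped at 259 to 420 and 123 to 346 CPM, also with 1 lower. The part of these cells in the values of the 9 genes was not tested.

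Whether the diet effect differed between the tissues was tested with the interaction term of the fit over all 15 libraries, as lung minus liver, in 9 tests of these genes among 17696. Irf7 was the gene whose difference passed an unadjusted p of 0.05, which 5.54% of all genes did in this direction and 5.4% in the other. Its difference was 0.97 on the log2 scale (standard error 0.29, unadjusted p = 0.00457, adjusted p = 0.315 from edgeR). It stayed between 0.82 and 1.12 in the 15 fits that left out 1 library, all with an unadjusted p of at most 0.018. With mouse as a block it was 0.83 with an unadjusted p of 0.0448. For Rsad2 the difference was 0.01 with a standard error of 0.90, an interval that reaches from -1.80 to 1.81 at 2 standard errors, so the data do not settle whether its fall was alike in both tissues. For Trim25 it was 0.28 (standard error 0.24). At an adjusted p under 0.05 edgeR called 0 of the 9 genes in either direction (0.00565% of all genes were called above 0 and 0.017% below), and with DESeq2 size factors, no filter, library totals or mouse as a block, or without liver CS 2, PS 1 and PS 3, the count was 0 as well.

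**Figure D4:**
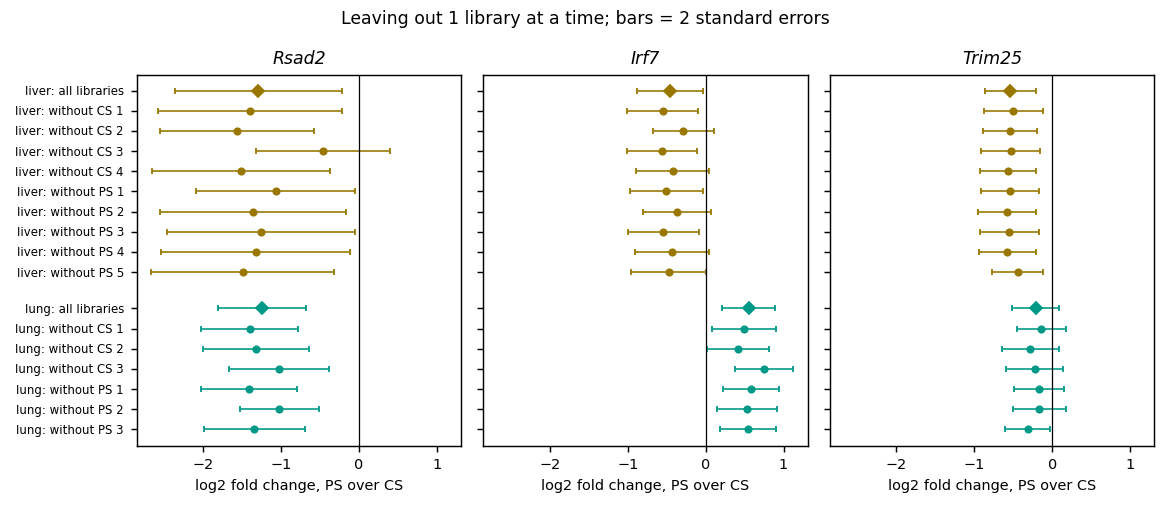
Log2 fold change of PS over CS for Rsad2, Irf7 and Trim25 with all libraries (diamonds) and with 1 library left out at a time (circles), with bars of 2 standard errors. Rsad2 in liver moved to -0.46 without CS 3, whereas Trim25 in liver lay between -0.58 and -0.44 in all fits.

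Correlations between the 9 genes were computed over the log2 CPM of the libraries of a tissue, which share diet and library quality. In the liver the median Pearson r over the 36 pairs was 0.38 (9 libraries), and it was above 0 in 33 pairs. Ifit1 with Ifit3 had the highest r, 0.92, followed by Ifit2 with Usp18 at 0.83. In the lung the median was 0.07 (6 libraries), with 19 of 36 pairs above 0 and Isg15 with Oasl2 lowest at -0.78, and Isg15 with Ifit1 (0.86) and Ifit1 with Ifit3 (0.85) were highest. Irf7 and Rsad2 had an r of -0.71 in the lung and -0.11 in the liver. The gene most like the mean z-score of the 9 among 10786 liver genes was Ephb4 (r = 0.94), followed by Ap5b1 (0.94), Atf7ip (0.93), Dhx58 (0.92), itself an interferon-stimulated RNA sensor, and AU040320 (0.91). Over 6 lungs and 14012 genes the first 5 were Fam72a (0.99), Iglv3 (0.98), Igkv15-103 (0.97), Bub1 (0.96) and Babam1 (0.95).

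The rest of the pathway was described from lists of ligands, receptors, signalling proteins, sensors and further targets. For each list count at an unadjusted p of at most 0.05, the share of all genes tested is 3.96% higher and 3.58% lower in the liver and 15.6% higher and 14.5% lower in the lung. Of the 21 interferon ligand genes, 18 had 0 counts in every liver and the others had at most 3 counts in a library. In the lung 16 had 0 counts in every library, and Ifng, with 4 to 22 counts, was the ligand that passed the filter on low counts (log2 fold change 0.54, unadjusted p = 0.395 from edgeR). A diet difference in the other ligands was not detectable at this depth.

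Of the 6 receptor genes, 5 were tested in the liver with 0 passing an unadjusted p of 0.05 in edgeR, and 6 in the lung with 1 higher, Il10rb (0.69, adjusted p = 0.0648). Ifnar1 was at 30.9 ± 5.67 CPM in CS and 28.3 ± 2.34 CPM in PS livers, and at 74.4 ± 5.58 and 73.5 ± 4.69 CPM in CS and PS lungs. Ifnar2 had log2 fold changes of -0.12 in liver (standard error 0.22) and 0.01 in lung (standard error 0.13). Among the 10 kinases, STAT proteins and interferon regulatory factors, Irf2 passed as higher in the liver (0.62, unadjusted p = 0.0355 from edgeR), but in only 4 of the 9 fits that left out 1 liver (p up to 0.101). In the lung 4 were higher and 1 lower (15.6% and 14.5% of all genes were), among them the kinase genes Tyk2 (0.57) and Jak2 (-0.47), with adjusted p-values of 0.0996 and 0.0659. Tyk2, whose groups overlapped, passed the unadjusted threshold in 2 of the 6 fits that left out 1 lung, and Jak2 in all 6. Stat2 and Irf3 passed the adjustment in the lung. Stat2 was measured at 51.3, 43.8 and 45.8 CPM in CS and 61.8, 116 and 106 CPM in PS lungs, a rise of 1.01 in log2 units with a standard error of 0.23 (adjusted p = 0.0354 from edgeR). In the liver it was at -0.10 (standard error 0.36). Irf3 rose from 65.8 ± 9.01 to 109 ± 14.5 CPM in the lung (adjusted p = 0.0353 from edgeR). Irf9, whose protein binds STAT2, had a lung log2 fold change of 0.15 (standard error 0.13) and did not pass.

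Of the 15 nucleic acid sensors and adaptors, 13 were tested in the liver with 0 higher and 1 lower, Tmem173, which encodes STING (log2 fold change -1.01, unadjusted p = 0.0266 from edgeR), which passed in 5 of 9 fits with 1 liver left out. In the lung 2 were higher and 2 lower. Tlr9, the endosomal sensor of DNA, fell from 1.77, 1.49 and 1.57 CPM to 0, 0.0558 and 0.221 CPM (adjusted p = 0.0217 from edgeR) on at most 35 counts. Ifih1, the sensor MDA5, had a log2 fold change of -0.60, Dhx58 of 0.61 and Ikbke, a kinase downstream of the sensors, of 0.62, with adjusted p-values of 0.0597, 0.137 and 0.128. With 1 lung left out, Dhx58 and Ikbke each passed the unadjusted threshold in 2 of 6 fits. Rnf125, a ubiquitin ligase that marks RIG-I for degradation, was the negative regulator that passed the unadjusted threshold in both tissues with all libraries. It was at 12.3, 10.4 and 9.12 CPM in CS and 0.71, 0.781 and 2.15 CPM in PS lungs (log2 fold change -3.12, standard error 0.42, adjusted p = 0.0163 from edgeR). In the liver it ranged from 1.62 to 65.2 CPM in CS and from 1.85 to 10.8 CPM in PS (log2 fold change -2.32, unadjusted p = 0.0134, adjusted p = 0.47), and without CS 3, its highest library, the log2 fold change was -1.57 with an unadjusted p of 0.0684 from edgeR.

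The enzymes that attach Isg15 were not all moved one way. Herc6, the mouse ligase for Isg15, was at 6.84 ± 0.654 CPM in CS and 8.95 ± 0.576 CPM in PS livers (log2 fold change 0.39, unadjusted p = 0.045, adjusted p = 0.646 from edgeR), and it passed the unadjusted threshold in 2 of 9 fits with 1 liver left out. Without CS 2, PS 1 and PS 3 its unadjusted p from edgeR was 0.0863. In the lung Herc6 rose from 14.4 ± 1.35 to 26.2 ± 3.28 CPM (log2 fold change 0.86, adjusted p = 0.0272 from edgeR). Uba7, the activating enzyme, was at 33.6 ± 4.74 and 50.2 ± 15.2 CPM in CS and PS lungs (adjusted p = 0.137) and passed the unadjusted threshold in 2 of 6 fits with 1 lung left out. Ube2e1 fell from 28.8 ± 2.14 to 13.9 ± 1.10 CPM in the lung (adjusted p = 0.0172 from edgeR), and it shares 718 exonic bases with Nkiras1 on the other strand.

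Of 61 further interferon-stimulated genes, 57 were tested in the liver, of which 1 was higher and 4 lower at an unadjusted p of at most 0.05 (3.96% and 3.58% of all genes were). Tor3a had the largest of these, at 37.5, 15.6, 39.9 and 29.7 CPM in CS and 3.79, 17.3, 8.69, 7.47 and 6.03 CPM in PS livers, which is -1.82 in log2 units with a standard error of 0.40 (adjusted p = 0.176 from edgeR). PS 2 lay above CS 2. Oas3 (-1.59) and Ifi27l2a (-0.96) were also lower and Nampt (0.41) higher in the liver, with unadjusted p-values of 0.0316, 0.0286 and 0.0176 from edgeR, and Oas3, Ifi27l2a and Nampt passed in 4, 5 and 8 of 9 fits with 1 liver left out. Without CS 2, PS 1 and PS 3, Ifi27l2a was at -0.78 with an unadjusted p of 0.106 from edgeR. In the lung Tor3a was at 0.01. In the lung 60 were tested, of which 11 were higher and 6 lower (15.6% and 14.5% of all genes were), and 6 and 2 of them passed the adjustment (4.8% and 4.43% of all genes). Oas2 rose from 18.2 ± 4.22 to 47.3 ± 14.8 CPM (log2 fold change 1.38, standard error 0.27, adjusted p = 0.0272) and Oas1b from 5.19 ± 0.923 to 14.2 ± 4.90 CPM (1.46, adjusted p = 0.0312). Both belong to the oligoadenylate synthetase family. Ifitm2, which blocks viral entry, rose from 121 ± 13.1 to 221 ± 46.5 CPM, while Dtx3l (-0.93) and Ifit1bl1 (-0.89) fell. Dtx3l shares 458 exonic bases with Parp9 on the other strand. Trim34a, at 18.3 ± 2.80 CPM in CS and 8.94 ± 5.25 CPM in PS lungs, had a log2 fold change of -1.03 (adjusted p = 0.0975 from edgeR) that passed the unadjusted threshold in 3 of 6 fits with 1 lung left out, and its copy Trim34b shares 98.7% identity over 1827 bases.

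Most list genes were named by a rule that uses their own p-values and fold changes, whereas Cmpk2 stands outside that rule and was chosen after its values were seen, as the neighbour of Rsad2 in the genome. Cmpk2, an interferon-stimulated nucleotide kinase, had log2 fold changes of -0.67 in the liver (standard error 0.32, unadjusted p = 0.0585) and -0.32 in the lung (standard error 0.17, unadjusted p = 0.0993), by edgeR. In the liver its highest value was in CS 3 (15.4 CPM, against 4.17 to 7.50 CPM in the other livers), the library in which Rsad2 was highest too, and without CS 3 its log2 fold change was -0.24 (unadjusted p = 0.377 from edgeR). Ifit3b, the copy of Ifit3, was at 15.4, 16.8 and 17.4 CPM in CS and 12.7, 11.4 and 10.6 CPM in PS lungs, a log2 fold change of -0.52 (unadjusted p = 0.0153, adjusted p = 0.0861 from edgeR) that passed the unadjusted threshold in 4 of 6 fits with 1 lung left out, while Ifit3 itself was at -0.11.

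Among the guanylate-binding and immunity-related GTPases, 17 were tested in the liver with 1 higher (Gbp7, 0.68) and 0 lower, and 16 in the lung with 1 higher (Gbp8, 0.59) and 2 lower (Tgtp2, -0.71, and Gm4951, -0.87) at an unadjusted p of at most 0.05. With 1 library left out, Gbp7 passed in 8 of 9 fits, Gbp8 in 3 of 6, and Tgtp2 and Gm4951 in 2 of 6 each. Tgtp2 shares 99.8% identity over 2811 bases with Tgtp1, so their reads may have been split between them. Of the 11 genes of class I antigen presentation, B2m, the light chain of class I molecules, was at 1798 ± 523 CPM in CS and 2898 ± 1068 CPM in PS livers (log2 fold change 0.69, unadjusted p = 0.0375 from edgeR), and it passed in 4 of 9 fits with 1 liver left out (p up to 0.107). In the lung 3 of these genes were higher and 1 lower, with Tap2 at 0.69, Psmb10 at 0.46 and Erap1 at -0.52. With 1 lung left out, Tap2 passed in 6 of 6 fits, Psmb10 in 3 and Erap1 in 2. Erap1 shares 834 exonic bases with Cast on the other strand. Nlrc5, the activator of these genes, rose from 29.9 ± 5.94 to 51.3 ± 7.04 CPM (adjusted p = 0.0395 from edgeR). Of the 4 interferon-induced chemokines, Cxcl9 was higher in the liver (0.89, unadjusted p = 0.0262, passed in 6 of 9 fits with 1 liver left out) and 0 of 3 passed in the lung, by edgeR. Over the 156 genes of these lists, 6 were higher and 6 lower of 128 tested in the liver (3.96% and 3.58% of all genes were), and 24 higher and 13 lower of 133 tested in the lung (15.6% and 14.5% of all genes). With 1 liver left out the counts ranged from 1 to 11 higher and from 4 to 11 lower, in fits that called 2.76% to 7.77% of all genes higher and 2.45% to 6.37% lower, with 1 and 5 without CS 1, 11 and 6 without CS 2, 3 and 11 without CS 4, and 3 and 4 without PS 3. Under other settings the split changed to 0 higher and 8 lower in the liver with a GC content trend removed (3.54% and 3.9% of all genes), where Irf2, Herc6, Nampt, Gbp7, B2m and Cxcl9 no longer passed, and to 17 higher and 20 lower in the lung with library totals, a scaling that called 2002 of all 16717 genes higher and 3127 lower and moved their median to -0.07. Without CS 2, PS 1 and PS 3 the liver counts were 8 higher and 8 lower (4.77% and 4.34% of all genes). After adjustment, edgeR called 0 and 0 in the liver, DESeq2 0 and 1, and in the lung edgeR called 10 and 5, DESeq2 16 and 8, and the edgeR fit over all 15 libraries 0 and 0. With 1 lung left out the 10 and 5 became 0 and 0 without CS 1, CS 2, CS 3 or PS 2, and 17 and 12 without PS 1. The calls over all genes went the same way, to at most 0.0117% higher and 0.145% lower in the first 4 of these fits and to 10.2% and 6.95% without PS 1.

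**Figure D5:**
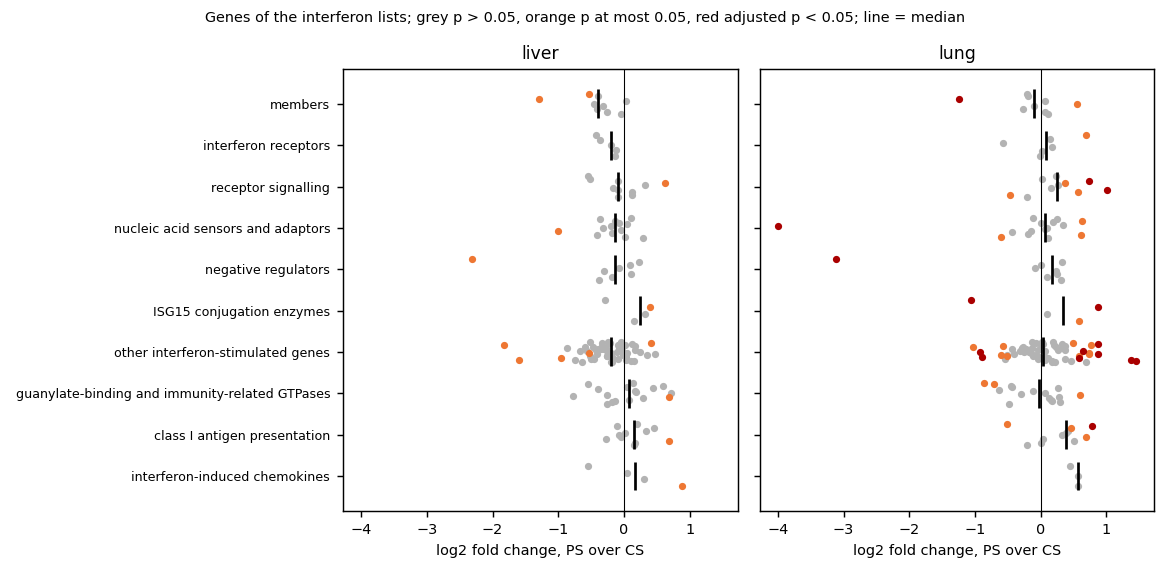
Log2 fold change of PS over CS for the genes of each list in liver and lung, coloured by unadjusted and adjusted p, with the list median as a black line. The median of the 9 genes was -0.39 in liver and -0.11 in lung, and the points past the adjustment were all in the lung.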

How the data were processed

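Per the labels and methods, poly(A) RNA of each liver and lung was sequenced, and the authors aligned the reads with HISAT2 2.0.5 and counted reads per gene with featureCounts 1.5.0-p3. The submitters' processing notes give the build mm10 and name DESeq2 1.20.0. The deposited counts are not normalized. The FPKM values that the authors deposited equal the counts over gene length and 1 scaling factor per library, set in each tissue separately. A strand setting is not given in the sources used here. Of 54532 genes, 54495 were found in GENCODE M21.

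Groups came from the labels. Within a tissue each library is from its own mouse, and same-numbered CS and PS samples are different mice. Diets were compared within each tissue with edgeR 4.0.16 (TMM, default filter on low counts with a minimum of 10, robust quasi-likelihood test, R 4.3.3) and Benjamini-Hochberg adjustment over all genes tested. The difference between tissues used 1 fit over 15 libraries. The fits were also run on simulated counts drawn for each gene on its own. These lack the shared line along which the livers deviated, so they do not check the liver p-values. DESeq2 1.42.0 and limma 3.58.1, pseudocounts of 1 and 0.1, other filters and scalings, a replicate block, length and GC trends (loess span 0.3) and leaving out libraries were alternatives. Library totals and leaving out CS 2, PS 1 and PS 3 together were added after the data were seen. The 9 genes and the lists were chosen with earlier results of these data known, and 1 gene of the signalling list is not reported here. Named from a list were genes with an unadjusted p of at most 0.05 among the 3 largest rises or falls of the list in a tissue, and always Ifnar1, Ifnar2, Stat2 and Irf9, with copies and overlapping genes of the 9 and, per tissue, the 5 genes most correlated with their mean z-score.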

Additional observations from a re-analysis of the deposited data

Results flagged for a closer look

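Irf7 was the gene for which the diet effect differed between the tissues at an unadjusted p of at most 0.05 in edgeR's test of the interaction. The difference was 0.97 on the log2 scale (lung minus liver, unadjusted p = 0.00457 from edgeR). All 3 PS lungs were above all 3 CS lungs, while in the liver the PS mean was below the CS mean with overlapping groups. It did not pass the adjustment over all genes (adjusted p = 0.315), and it was picked out of 9 genes. In the 18 groups of 4 or 5 livers examined, no library passed Dixon's critical values, 0.829 for 4 and 0.71 for 5 libraries. Groups of 3 lungs were not examined. A result can depend on 1 library below these values. The log2 fold change of Rsad2 in the liver moved from -1.29 to -0.46 without CS 3.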

How the results depend on the processing

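Alternatives numbered 189 for the liver, 153 for the lung, 60 for the difference and 171 for lung against liver. Of these, 161, 135, 51 and 155 kept direction and side of the threshold. Most of the genes were not called for diet in the main fits, so these totals say little about the calls. Liver Rsad2 kept its unadjusted call in 5 of 9 fits with 1 liver left out and 8 of 12 others. For liver Trim25 it was 9 of 9 and 11 of 12. Lung Rsad2 kept its adjusted call in 2 of 6 fits with 1 lung left out and 10 of 11 others. For the 9 genes in the liver, the number lower at an unadjusted p of at most 0.05 was 1 with no filter, 1 with limma on log2(FPKM + 1), 1 with limma on log2(FPKM + 0.1), 4 without CS 2, PS 1 and PS 3 together, 3 (with Irf7) with DESeq2, DESeq2 size factors, library totals and the fit over all 15 libraries, and 1 to 3 with 1 liver left out. In the lung, DESeq2 called 1 gene higher after adjustment (Irf7), the fit over all 15 libraries called 0 lower, and with 1 lung left out 0 to 1 were lower after adjustment and 0 to 1 higher at the unadjusted threshold. For lung against liver, library totals gave 7 higher and 1 lower.

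Same-numbered CS and PS samples are different mice. The deviations of samples with the same replicate number correlated at -0.36 to -0.03 in the liver and at -0.01 to 0.10 in the lung. Liver and lung of the same mouse correlated at only -0.07 to 0.12, so this measure cannot show whether the numbers pair samples. With the number as a replicate block, 0 of the 9 genes were lower in the liver at the unadjusted threshold, and Isg15 (0.041), Oasl2 (-0.11) and Stat2 (0.076) changed sign. Between tissues the mouse is shared (correlations of -0.07 to 0.12), and with mouse as the block Irf7 was still the gene past the unadjusted threshold for the difference.

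With all libraries, these values also changed sign. In the liver they were Oasl2 with library totals (-0.012) and Ifit3b with limma on log2(FPKM + 0.1) (0.034). In the lung, library totals gave -0.019 for Ifit1, -0.0078 for Oasl2 and -0.065 for Ifnar2, the GC trend gave 0.015 for Ifit3 and 0.067 for Ifnar1, the length trend gave 0.036 for Ifnar1, and the fit over all 15 libraries gave -0.017 for Ifnar2. The difference for Rsad2 was -0.0085 with no filter and -0.0037 without the 3 livers. For lung against liver, DESeq2 size factors gave 0.040 for Isg15 and 0.10 for Ifit1, no filter gave 0.036 for Ifit1, and library totals gave 1.27 for Isg15, 1.33 for Ifit1, 0.26 for Rsad2, 1.10 for Usp18 and 0.69 for Trim25. The cause of these changes was not tested.

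With 1 library left out, the sign also changed for these ranges. In the liver they were -0.29 to 0.19 for Isg15, -0.18 to 0.21 for Oasl2, -0.29 to 0.0068 for Ifnar2, -0.26 to 0.41 for Stat2 and -0.46 to 0.27 for Ifit3b. In the lung they were -0.18 to 0.29 for Isg15, -0.13 to 0.29 for Ifit1, -0.22 to 0.0074 for Ifit3, -0.11 to 0.27 for Oasl2, -0.34 to 0.027 for Usp18, -0.062 to 0.033 for Ifnar1 and -0.017 to 0.033 for Ifnar2. The difference for Rsad2 ranged from -0.84 (without liver CS 3) to 0.28, and lung against liver from -0.25 to 0.0048 for Isg15 and from -0.14 to 0.083 for Ifit1. Ifit2 and Oasl2 had fewer than 100 counts in each liver library, which limits their precision.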
